A study of Mus musculus with 9 samples.

Results

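The 8 genes described here are the plakophilins Pkp1, Pkp2, Pkp3 and Pkp4 and their desmosome partners Dsp, Jup, Dsc2 and Dsg2. They were found by gene symbol in the platform annotation, which gave 21 probe sets of the 45101 on the array. Each probe set is a group of probes read as 1 value. Pkp2 was picked because it was among the genes that rose most over empty vector, and the other 7 genes were added as its family and partners, so the values of Pkp2 against empty vector are a description and carry no test.

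Desmosomes are junctions that tie the intermediate filaments of neighbouring cells together, and they are known best from epithelia and heart muscle. Desmogleins and desmocollins are cadherins that cross the membrane. Inside the cell, plakoglobin and the plakophilins, proteins with armadillo repeats, bind the cadherin tails, and desmoplakin links this plaque to the filaments. Plakophilins also occur outside desmosomes, and fibroblasts are not a cell type known for desmosomes.

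The cells were NIH-CAR cells, a clonal line of NIH-3T3 mouse fibroblasts that stably expresses the coxsackie-adenovirus receptor (CARΔ1), used at passage 12. Cells in the deleted-receptor group were transduced with an adenovirus for HA-tagged PPARgCDE, which lacks the A/B-domain, and then given 1 µM rosiglitazone. The full-length group received an adenovirus for HA-tagged PPARg2 and then the same dose of rosiglitazone, and the empty-vector group received the virus without insert and then the vehicle DMSO. All groups carried a virus, left on for 2 h, and each group had 3 arrays. PPARg is a nuclear receptor that drives adipocyte differentiation, rosiglitazone is its agonist, and the A/B-domain is its N-terminal part. Receptor and agonist were given together, so the part of each in a difference from empty vector cannot be told apart. All arrays came from 1 clone, and p-values measure the spread between these arrays.

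Levels and differences are given on the log2 scale of the deposited values, so 1 unit is a doubling. Levels are of total RNA from whole cultures, in which more cells with a transcript and more transcript per cell cannot be told apart. A probe set was called when its limma p-value, after Benjamini-Hochberg adjustment over 45037 probe sets, was under 0.05. Array medians ran from 6.68 to 6.90, and the number of arrays, not a read depth, limits the precision. Pparg itself, read by a probe set that does not separate transgene from endogenous transcript, stood between 10.74 and 12.01 on the deleted-receptor arrays, between 10.70 and 12.22 on the full-length arrays and between 6.99 and 7.17 on the empty-vector arrays. The arrays numbered 3 stood apart in the control probe sets for 18S ribosomal RNA, at 8.06 with the deleted receptor, 7.59 with the full-length receptor and 8.67 with empty vector, while the other 6 arrays lay between 10.51 and 12.44. None of the 12 fibroblast markers lay below the array median on all arrays, and limma called 0 of the 12 in any comparison, with 0 at an unadjusted p under 0.05. The 4 of highest mean were Vim, S100a4, and the collagen genes Col1a2 and Col1a1, with means over all arrays from 13.52 to 14.12.

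Pkp2, the plakophilin known from heart and many epithelia, was the member whose level differed most between the groups, and it did so on 2 of its 4 probe sets. On probe set 1449799_s_at the deleted-receptor arrays read 9.32, 9.57 and 9.53, the full-length arrays 9.63, 9.74 and 9.98, and the empty-vector arrays 6.19, 6.65 and 6.63. All 6 receptor arrays lay above all 3 empty-vector arrays, by far more than the spread within a group, and every deleted-receptor array lay below every full-length array. The group means were 9.47 ± 0.13 with the deleted receptor, 9.78 ± 0.18 with the full-length receptor and 6.49 ± 0.26 with empty vector (SD, n = 3 each). Against empty vector the difference was 2.98 (SE 0.16) with the deleted receptor and 3.29 (SE 0.16) with the full-length receptor. The empty-vector values lay below the array median and have no detection calls, so these differences are not given as folds of transcript. These 2 comparisons share the empty-vector arrays.

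Probe set 1429183_at of Pkp2 was also higher with both receptors but spread more widely. It read 8.02, 8.43 and 9.23 with the deleted receptor, 8.20, 8.32 and 9.64 with the full-length receptor, against 6.16, 6.36 and 6.59 with empty vector. The array numbered 3 was the highest of its group in all 3 groups, and the receptor arrays again lay above all empty-vector arrays. The difference from empty vector was 2.19 (SE 0.40) with the deleted receptor and 2.35 (SE 0.40) with the full-length receptor. Without the 3 arrays numbered 3 these differences were 1.96 (SE 0.17) and 2.00 (SE 0.17), and those of 1449799_s_at were 3.03 (SE 0.18) and 3.27 (SE 0.18).

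The other pair of Pkp2 probe sets stayed low in every group. On 1420259_at the deleted-receptor arrays read 6.46, 6.48 and 6.56, the full-length arrays 6.19, 6.54 and 6.18, and the empty-vector arrays 5.88, 6.52 and 6.44, so the full-length and empty-vector arrays overlapped. Its differences from empty vector were 0.22 (SE 0.18) with the deleted receptor and 0.02 (SE 0.18) with the full-length receptor. The annotation gives this probe set the same source sequence record as 1449799_s_at, the probe set with the largest difference. On 1460511_at the values were 6.12, 6.47 and 6.03 with the deleted receptor, 5.99, 6.42 and 6.31 with the full-length receptor, against 5.93, 5.85 and 5.48 with empty vector. Here the receptor arrays lay above the empty-vector arrays by a narrow margin, with differences of 0.46 (SE 0.18) with the deleted receptor and 0.49 (SE 0.18) with the full-length receptor. Neither probe set reached the array median on any of the 9 arrays, whereas 1449799_s_at and 1429183_at did so on the 6 receptor arrays and on no empty-vector array. Where in the Pkp2 transcript each probe set lies was not analysed here.

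**Figure D1:**
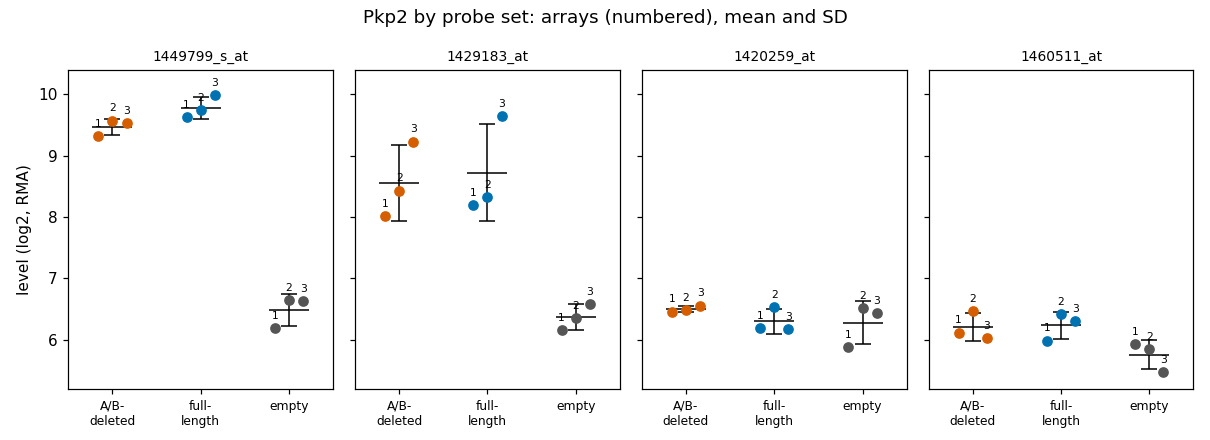
Levels of the 4 Pkp2 probe sets (vertical axis, log2) in the A/B-deleted, full-length and empty-vector groups; points are arrays with their replicate number, and bars give the mean and SD. On 1449799_s_at and 1429183_at the receptor arrays stand well above the empty-vector arrays, at 8.02 or more against 6.65 or less, while 1420259_at and 1460511_at stay at 6.56 or less in every group.

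Among the other plakophilins no such difference was seen. Pkp4, which belongs to the p120-catenin branch and is found at adherens as well as desmosomal junctions, read 9.11, 8.92 and 9.36 with the deleted receptor, 9.19, 8.74 and 9.21 with the full-length receptor, against 9.07, 9.11 and 9.36 with empty vector on 1452209_at. The 3 groups overlapped. Over the 2 probe sets of Pkp4 the differences from empty vector were -0.05 and -0.04 with the deleted receptor and -0.13 and -0.08 with the full-length receptor, with SE of 0.17 and 0.13. Pkp4 lay above the array median on all 9 arrays with both probe sets, as did the single probe sets of Pkp1 and Jup.

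Pkp1, a plakophilin of stratified epithelia, averaged 7.41 ± 0.27 with the deleted receptor, 7.41 ± 0.14 with the full-length receptor and 7.40 ± 0.24 with empty vector (SD, n = 3 each). Its differences from empty vector were 0.01 (SE 0.17) for either receptor. Pkp3, found in most desmosome-bearing epithelia, was read by 2 probe sets. On 1418832_at the arrays read 7.08, 6.62 and 7.79 with the deleted receptor, 7.24, 7.65 and 7.88 with the full-length receptor, against 7.23, 7.09 and 7.0 with empty vector. The deleted-receptor arrays spanned those of empty vector, and the full-length arrays lay just above them, with a difference of 0.48 (SE 0.27) that was not called. The second Pkp3 probe set, 1418831_at, differed from empty vector by -0.21 (SE 0.25) with the deleted receptor and by -0.01 (SE 0.25) with the full-length receptor.

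The plaque partners of the plakophilins came next. Jup encodes plakoglobin, which also serves adherens junctions, and its probe set 1426873_s_at read 7.0, 7.07 and 7.04 with the deleted receptor, 6.83, 6.92 and 6.91 with the full-length receptor, against 7.28, 7.12 and 7.12 with empty vector. The 3 groups did not overlap, with empty vector highest and the full-length receptor lowest, but the steps were small. The differences from empty vector were -0.14 (SE 0.10) with the deleted receptor and -0.29 (SE 0.10) with the full-length receptor, and neither was called. Dsp encodes desmoplakin, and its most variable probe set, 1435493_at, read 6.68, 7.32 and 6.68 with the deleted receptor, 7.24, 7.38 and 5.54 with the full-length receptor, against 6.12, 6.69 and 5.96 with empty vector. The full-length array numbered 3 was the lowest of all 9 arrays, and the full-length group spanned the empty-vector group. Its differences from empty vector were 0.64 (SE 0.44) with the deleted receptor and 0.46 (SE 0.44) with the full-length receptor, while those of the other 2 Dsp probe sets lay between -0.06 and 0.18. Without full-length replicate 3 the full-length difference of 1435493_at was 1.06 (SE 0.25), and without the 3 arrays numbered 3 it was 0.91 (SE 0.26), neither of them called.

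The desmosomal cadherins differed little between the groups. Dsc2, a desmocollin, averaged 6.99 ± 0.05 with the deleted receptor, 7.10 ± 0.07 with the full-length receptor and 6.94 ± 0.12 with empty vector on 1421156_a_at (SD, n = 3 each). The full-length arrays, at 7.18, 7.08 and 7.03, lay narrowly above the empty-vector arrays, at 7.0, 7.02 and 6.80. On the second Dsc2 probe set, 1426911_at, the differences from empty vector were -0.14 (SE 0.23) with the deleted receptor and -0.01 (SE 0.23) with the full-length receptor. Dsg2, the desmoglein expressed most widely, had 6 probe sets, and none reached the array median on any array. Their differences from empty vector ran from -0.33 to 0.10 with the deleted receptor and from -0.08 to 0.02 with the full-length receptor. Their array values ran from 3.51 to 6.57, and the widest spread in a group, 0.67 (SD), was that of 1426153_a_at with the full-length receptor, where the array numbered 3 read 5.55 and the other pair 4.52 and 4.28. Without that array its difference from empty vector with the full-length receptor was -0.46 (SE 0.24). The table holds no detection calls, so a low value does not show that a transcript was absent.

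**Figure D2:**
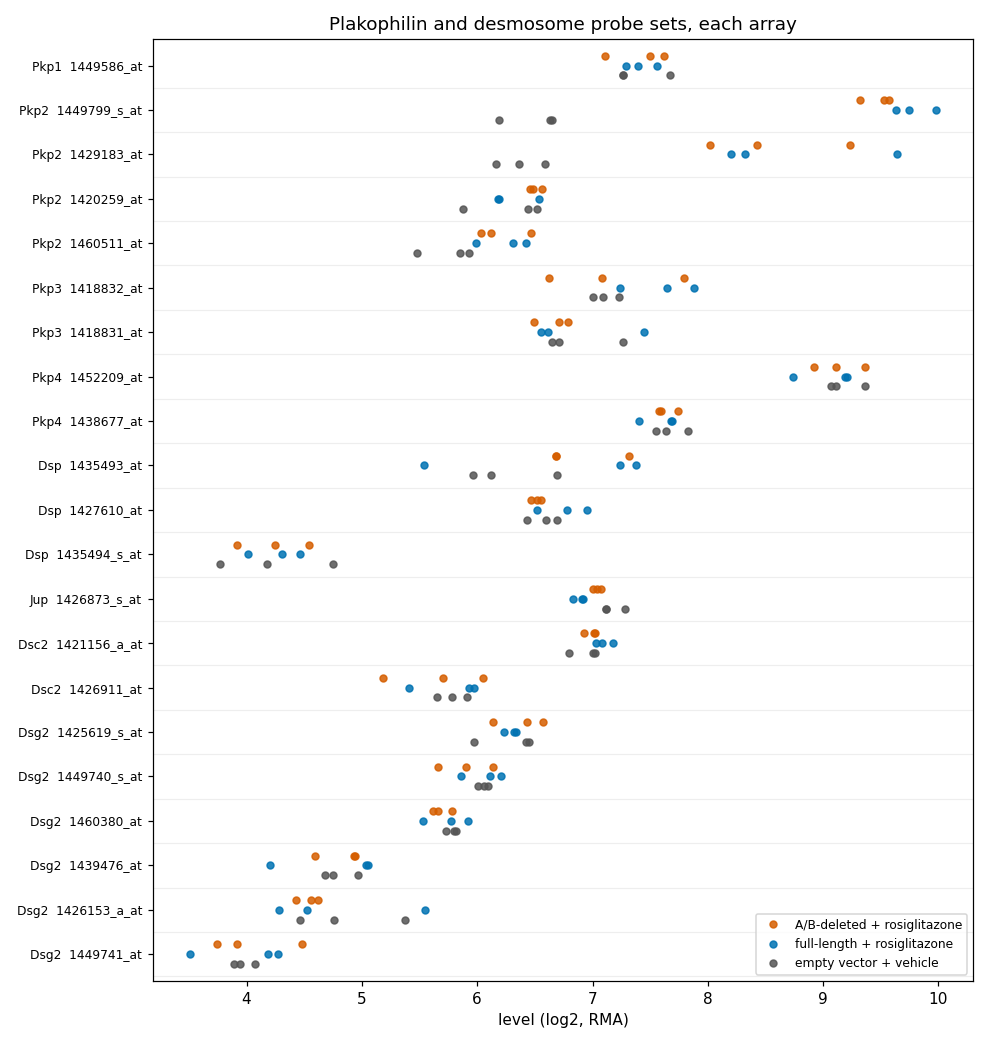
Level (horizontal axis, log2) of each of the 21 member probe sets on each array, with the A/B-deleted group above the full-length group and the empty-vector group lowest within a row. The 2 upper Pkp2 rows are the rows with a wide gap between receptor and empty-vector arrays, and most other rows overlap.

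Counted over all members, 1 of 21 probe sets was called against empty vector with the deleted receptor and 2 of 21 with the full-length receptor, and all were Pkp2 probe sets that were higher. Over all 45037 probe sets the share called higher was 0.0999% with the deleted receptor and 0.333% with the full-length receptor. Since Pkp2 was picked from these values, nothing is read from the counts, here or in the alternative fits. With the replicate number as a block, used because same-numbered deleted-receptor and empty-vector arrays deviated together, 1429183_at was called with the deleted receptor too, so that 2 of 21 were called. That count was also 2 without full-length replicate 3, and 2 without the 3 arrays numbered 3. With the full-length receptor the count was 1 in fits without full-length replicate 1 or 2, without any 1 of the empty-vector replicates 1, 2 and 3, or without deleted-receptor replicate 1 or 2, and 1449799_s_at was the probe set called in each.

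The 17 probe sets of the 7 genes other than Pkp2 had a median difference from empty vector of -0.04 with the deleted receptor and 0.01 with the full-length receptor. The median over all probe sets was -0.01 with the deleted receptor and 0.01 with the full-length receptor. The 17 ranged from -0.33 to 0.64 with the deleted receptor and from -0.29 to 0.48 with the full-length receptor, with SE from 0.10 to 0.44. Limma called 0 of the 17 for either receptor, with or without the block, and 0 with the deleted receptor and 1 with the full-length receptor, Jup, had an unadjusted p under 0.05. Over all probe sets 3.43% with the deleted receptor and 5.29% with the full-length receptor had such a p, so 1 of 17 is near the share over all. Groups did not overlap for 1 of the 17 with the deleted receptor, Jup, where 8.48% of all probe sets were so separated. With the full-length receptor 3 of the 17 were separated, those of Jup, Pkp3 and Dsc2, where the share over all probe sets was 8.6%.

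**Figure D3:**
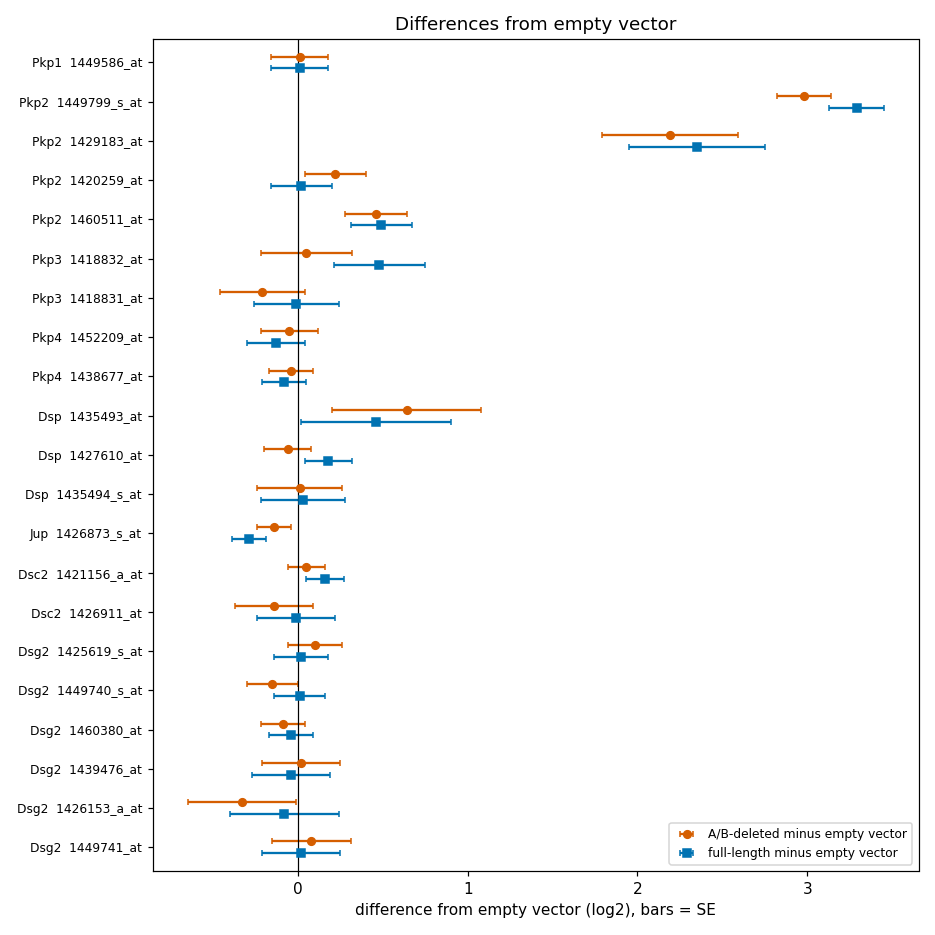
Difference from empty vector (horizontal axis, log2) of each member probe set with the A/B-deleted receptor (circles) and the full-length receptor (squares); bars give the SE. Pkp2 1449799_s_at stands at 2.98 and 3.29 and Pkp2 1429183_at at 2.19 and 2.35, while the 17 probe sets of other genes lie between -0.33 and 0.64.

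The deleted receptor was then set against the full-length receptor, both with rosiglitazone, the comparison that bears on the A/B-domain. This contrast was not the one Pkp2 was picked from, though it uses the same full-length arrays. Picking for a large rise on those arrays favours a lower value with the deleted receptor. None of the 21 member probe sets was called by limma, and at an unadjusted p under 0.05 the number in the fit without the block was also 0. Of all 45037 probe sets 0.0% were called, and 874, or 1.94%, had an unadjusted p under 0.05. For Pkp2 1449799_s_at the deleted receptor was lower in 3 of 3 same-numbered pairs, with a difference of -0.31 (SE 0.16, 95% interval from -0.67 to 0.05, limma adjusted p = 1.00). The replicate block was fitted over all 9 arrays, so the empty-vector arrays entered its SE too. The block also tied full-length arrays to empty-vector arrays of the same number, whose deviations from group means correlated at -0.207 to 0.564. With the block the difference had an SE of 0.10 and a 95% interval from -0.55 to -0.07, which does not hold 0. The probe set was not called (limma adjusted p = 0.983). It was the single probe set of the 21 with an unadjusted p under 0.05 in the blocked fit, where 4.17% of all probe sets had one. Pkp2 1429183_at differed by -0.16 (SE 0.40), with an interval from -1.05 to 0.73, and without full-length replicate 3 the difference was 0.30. The 2 other Pkp2 probe sets differed by 0.20 (SE 0.18) for 1420259_at and -0.03 (SE 0.18) for 1460511_at.

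Among the other members the differences between the receptors ran from -0.43 for Pkp3 1418832_at (95% interval from -1.04 to 0.19) to 0.17 for Dsp 1435493_at (95% interval from -0.82 to 1.17). The Dsp value depended on single arrays, since it was -0.42 (SE 0.25) without full-length replicate 3 and -0.04 (SE 0.50) without deleted-receptor replicate 2. Without the 3 arrays numbered 3 it was -0.31 (SE 0.26). Jup was higher with the deleted receptor in 3 of 3 pairs, by 0.15 (95% interval from -0.09 to 0.38), and Dsc2 1421156_a_at was lower in 3 of 3, at -0.11 (95% interval from -0.36 to 0.14). The deleted-receptor and full-length arrays were separated for 3 of the 21 probe sets, those 2 and Pkp2 1449799_s_at, against 5.93% of all probe sets. With the replicate block no member was called in this comparison, and the intervals of the members other than Pkp2 1449799_s_at all held 0.

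**Figure D4:**
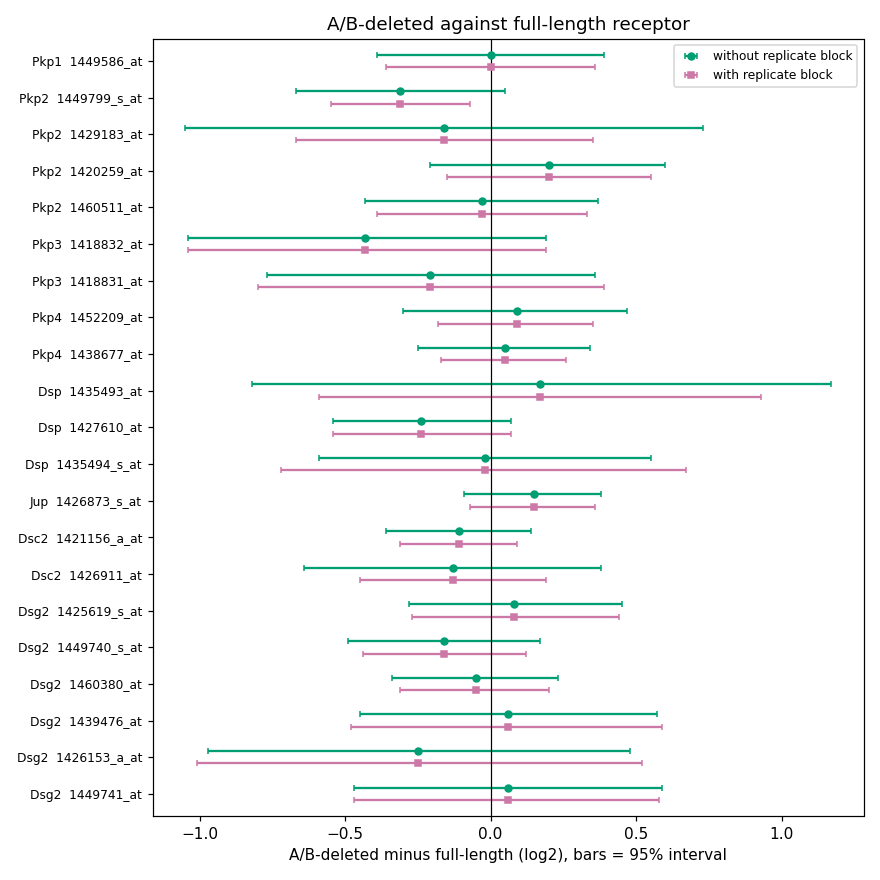
Difference between the A/B-deleted and the full-length receptor (horizontal axis, log2) for each member probe set; bars give the 95% interval from limma without the replicate block (circles) and with it (squares). Every interval without the block holds 0, the widest, for Dsp 1435493_at, running from -0.82 to 1.17, and with the block the interval of Pkp2 1449799_s_at, from -0.55 to -0.07, lies below 0.

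In genes around the desmosome limma called 0 changes in any of the 3 comparisons, with or without the replicate block. An unadjusted p under 0.05 was reached by 3.43% of all probe sets with the deleted receptor and 5.29% with the full-length receptor. Between the receptors it was reached by 1.94%. The lists used 1 probe set a gene, that of highest mean. In a fit of such probe sets alone, 689, 1127 and 277 of 18193 reached that level in these comparisons. At that level the list of other desmosome genes had 0. The adherens junction list of 25 had Ctnnd1 and Ctnna1 with the deleted receptor, and Ctnnd1, Ctnna1 and Ctnnal1 with the full-length receptor, all lower than with empty vector. The intermediate filament list of 20 had Krt15, lower with the deleted than with the full-length receptor. Ctnnd1, Ctnnal1 and Krt15 are named after their values were seen. Of the other desmosome genes 9 of 12 were analysed, each by its probe set of highest mean, and their median difference from empty vector was -0.13 with the deleted receptor and -0.05 with the full-length receptor. Tmem43, a nuclear envelope protein gene linked in human to the same heart disease as PKP2, averaged 8.76 ± 0.16 with the deleted receptor, 8.61 ± 0.17 with the full-length receptor and 8.88 ± 0.26 with empty vector (SD, n = 3 each). The plakin genes Ppl and Evpl, which encode cell envelope proteins that bind filaments, differed from empty vector by 0.15 (SE 0.13) and -0.13 (SE 0.12) with the deleted receptor, and by 0.14 (SE 0.13) and -0.10 (SE 0.12) with the full-length one. Cdsn, an epidermal adhesion protein gene, differed from empty vector by -0.05 (SE 0.34) with the full-length receptor.

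All 25 genes of the adherens junction and armadillo list were analysed, with medians of -0.06 with the deleted receptor and -0.10 with the full-length receptor against empty vector. The summed antilog level of the list ran from 22275 to 23134 with the deleted receptor, from 20518 to 21967 with the full-length receptor and from 24662 to 25032 with empty vector, so these sums did not overlap. Such a sum is set mostly by the genes of highest level, such as Ctnnb1, and 0 of the 25 genes were called. Single probe sets were separated from empty vector in 8.48% of cases with the deleted receptor and 8.6% with the full-length receptor. No such share was computed for sums. Ctnna1, which encodes the alpha-catenin that couples cadherins to actin, averaged 11.39 ± 0.06 with the deleted receptor, 11.36 ± 0.09 with the full-length receptor and 11.74 ± 0.10 with empty vector, a difference that was not called. Ctnnb1, the beta-catenin gene, averaged 12.72 ± 0.10 with the deleted receptor, 12.66 ± 0.13 with the full-length receptor and 12.77 ± 0.13 with empty vector. Vcl, the vinculin gene, and Gja1, a gap junction gene, differed from empty vector by -0.29 (SE 0.24) and -0.11 (SE 0.20) with the full-length receptor. In the intermediate filament list, 20 of 20 analysed, the medians were -0.07 with the deleted receptor and 0.03 with the full-length receptor. Vim, the filament gene of fibroblasts, averaged 14.13 ± 0.14 with the deleted receptor, 14.16 ± 0.13 with the full-length receptor and 14.08 ± 0.14 with empty vector. Lmna, the lamin gene of the nuclear envelope, differed from empty vector by 0.25 (SE 0.14) with the full-length receptor, and the filament linkers Plec and Dst by -0.15 (SE 0.24) and 0.36 (SE 0.22).

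Markers of other cell types were looked at beside Pkp2. Of 14 epithelial, 10 cardiac muscle and 8 endothelial markers limma called 0 in any comparison, with or without the replicate block. At an unadjusted p under 0.05 the number was 0 for epithelial and endothelial markers. Of the cardiac muscle markers it was Nppb and Mybpc3 with the deleted receptor and Nppb and Ryr2 with the full-length receptor, all lower than with empty vector. Ryr2, named after its values were seen, was higher with the deleted than with the full-length receptor. At that level stood 3.43% of all probe sets with the deleted receptor, 5.29% with the full-length receptor and 1.94% between the receptors. With only the highest-mean probe set of each gene it was 689, 1127 and 277 of 18193. Nppb lay above the array median on 1 of 9 arrays and Ryr2 on 0. The summed antilog level of the epithelial markers ran from 1766 to 1926 with the deleted receptor, from 1875 to 2190 with the full-length receptor and from 1485 to 2219 with empty vector, so the groups overlapped, and 6 of the 14 lay below the array median on every array. For the cardiac muscle markers the sums ran from 749 to 2072 with the deleted receptor, from 819 to 1856 with the full-length receptor and from 1109 to 2604 with empty vector. The cardiac markers of highest mean were Tnnt2, Mybpc3, Nppa and Nppb. Tnnt2, a troponin gene, spread widely within groups, at 8.67 ± 1.60 with the deleted receptor, 8.73 ± 1.35 with the full-length receptor and 9.38 ± 1.34 with empty vector (SD, n = 3 each). Mybpc3, a myosin-binding protein gene, and the natriuretic peptide genes Nppa and Nppb differed from empty vector by -0.37 (SE 0.13), -0.14 (SE 0.15) and -0.47 (SE 0.14) with the deleted receptor. All 8 endothelial markers lay below the array median on every array, and those of highest mean, Kdr, Pecam1, Cdh5 and Cldn5, differed from empty vector by between -0.17 and 0.13 with the deleted receptor and between -0.06 and 0.15 with the full-length receptor. The part of any of these markers in the Pkp2 result was not tested. The epithelial markers with the highest means were Epcam, Krt5, Grhl2 and Cldn4, and Epcam differed from empty vector by 0.43 (SE 0.31) with the full-length receptor. In the adipocyte list, chosen with earlier results known, 4 of 9 genes were called higher with the deleted receptor and 5 of 9 with the full-length receptor. Among all 45037 probe sets the shares called higher were 0.0999% and 0.333%. The 4 were Fabp4, Lpl, Plin2 and Pparg, and Cidec was called with the full-length receptor. Pparg is the gene the receptor viruses carried, so its call was set by the design. Cd36, Adipoq, Cebpa and Lipe were not called. Their differences from empty vector ran from -0.02 to 0.04 with the deleted receptor and from -0.11 to 0.25 with the full-length receptor. Cidec, a lipid droplet gene, averaged 5.70 ± 0.37 with the deleted receptor, 7.66 ± 0.71 with the full-length receptor and 5.15 ± 0.21 with empty vector (SD, n = 3 each), and its difference between the receptors, -1.96 (SE 0.32), was not called.

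The levels of Pkp2 1449799_s_at over the 9 arrays were compared with those of 18192 other genes, each by its probe set of highest mean. The correlations are descriptive, since the arrays fall into receptor and empty-vector arrays and share that split. The gene most like Pkp2 was Gm20559 (Pearson r = 0.996), at 10.96, 11.26 and 11.21 with the deleted receptor, 11.14, 11.25 and 11.40 with the full-length receptor, against 8.66, 8.84 and 9.19 with empty vector. Next came Pebp1 (r = 0.991), a Raf kinase inhibitor gene, Ppcs (r = 0.988), an enzyme gene of coenzyme A synthesis, Etfdh (r = 0.986), which passes electrons from fatty acid oxidation to the respiratory chain, and Trim25 (r = 0.984), a ubiquitin ligase gene. Their differences from empty vector were smaller than that of Pkp2, from 0.37 to 2.25 with the deleted receptor and from 0.40 to 2.36 with the full-length receptor. The genes with the most opposite course were Cdc42ep1 (r = -0.977), an effector gene of the GTPase CDC42, Acbd4 (r = -0.968), Lrch1 (r = -0.964), Mcl1 (r = -0.956), a survival gene of the BCL2 family, and Rab5a (r = -0.953), an endosome GTPase gene. Cdc42ep1 was the lowest of these against empty vector, at -0.83 (SE 0.12) with the deleted receptor and -1.0 (SE 0.12) with the full-length receptor.

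None of the other members followed Pkp2 closely in the same direction. Jup ran opposite to it, at rank 18019 of 18192 genes from the highest correlation down. Over the same 9 arrays the correlation with Pkp2 1449799_s_at was 0.48 for Dsc2, 0.387 for Dsp, 0.37 for Pkp3, 0.096 for Dsg2, -0.022 for Pkp1, -0.218 for Pkp4 and -0.832 for Jup, each by its probe set of highest mean. Among the Pkp2 probe sets it was 0.936 for 1429183_at, 0.758 for 1460511_at and 0.292 for 1420259_at.

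**Figure D5:**
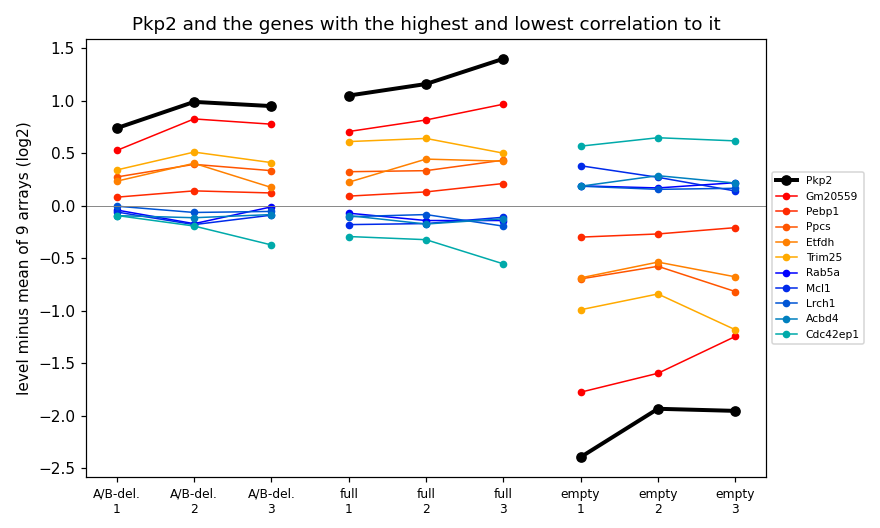
Level of Pkp2 (1449799_s_at, thick black line) and of the 5 genes with the highest and the 5 with the lowest correlation to it, each minus its mean over the 9 arrays (vertical axis, log2); the horizontal axis gives the arrays by group. The 5 most like genes are high on the 6 receptor arrays and low on the 3 empty-vector arrays, with a smaller range than Pkp2, and the 5 opposite genes run the other way.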

How the data were processed

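The authors deposited log2 values, 1 for each probe set on each array. They used RMA from affy, run in R 2.5.0, per the submitters' processing notes. Base 2 was read from the values: the antilog was a multiple of 0.01 for at least 99.858% of values on every array. Groups and replicate numbers came from sample titles. Symbols came from the platform annotation and were looked up by Entrez identifier in RefSeq's table for GRCm38.p6, with 0 symbols changed. No coordinates are given. The 64 Affymetrix control probe sets were left out. Values were used as deposited in 1 limma 3.58.1 fit (R 4.3.3; lmFit, contrasts, eBayes; two-sided; 3 group means; 6 residual and 3.521 prior degrees of freedom). Tables and figures used Python 3.11.15 with pandas 2.3.3, numpy 2.4.6 and matplotlib 3.10.9.

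The members, the lists and the tests were chosen with earlier results of these data known. All member probe sets are named. From each list the members called in any comparison are named, or else the 4 of highest mean, together with the 5 genes most and least correlated with Pkp2. Same-numbered arrays were checked for shared deviations from group means. Correlations ran from 0.218 to 0.451 between the receptors, where differently numbered arrays reached 0.222. They ran from 0.434 to 0.624 between deleted receptor and empty vector. For these comparisons the numbers were treated as pairs only in the alternative fit with the block, and the main fit had no block. Between full-length receptor and empty vector the correlations ran from -0.207 to 0.564. The block was fitted over all arrays, so it tied same-numbered arrays of these groups too. The fit was tested on simulated data for the full-length comparison over 45037 probe sets. There 54% of true changes of 1 log2 unit and 98% of those of 2 were called. The simulated noise was drawn independently for each array, without the shared deviations of the real arrays, so these shares need not hold here. Alternatives were a block, other scalings, filters, probe set summaries, fit samples and priors, and leaving arrays out. No pair of arrays held duplicate values.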

Additional observations from a re-analysis of the deposited data

How the results depend on the processing

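The differences of Pkp2 1449799_s_at from empty vector, from which Pkp2 was picked, are given as a description: they ran from 2.83 to 3.06 with the deleted receptor and from 3.14 to 3.37 with the full-length receptor over the alternatives. All alternatives called 0 members between the receptors. The count of called members with the full-length receptor, 2, was 1 after quantile normalization, 1 with only the 6 compared arrays, and 1 with either the highest-mean probe set or the mean of the probe sets of each gene, where 8 genes and not 21 probe sets were tested; leaving out 1 array gave from 1 to 2. With the deleted receptor the count, 1, was 2 with the replicate block and 2 without the arrays numbered 3. Leaving out 1 array gave from 1 to 2. Only Pkp2 was called, and it was picked for its rise over empty vector, so nothing is read from these counts. Over all probe sets the block moved the calls with the deleted receptor to 188, against 46 without it. With the full-length receptor, where same-numbered arrays did not all deviate together, it moved them to 831, against 200. The block changed no other call of a member. Calls with the full-length receptor numbered 98 with only the 6 compared arrays, 119 and 105 with 1 value a gene, and 304 without the arrays numbered 3, where those with the deleted receptor numbered 90. Differences that were not called changed sign under alternatives. Between the receptors Pkp2 1460511_at was 0.01 after quantile normalization, and Dsp 1435494_s_at was 0.01 after median subtraction. Without the arrays numbered 3 the value was 0.09 for Pkp2 1460511_at, 0.06 for Pkp3 1418831_at, -0.31 for Dsp 1435493_at, -0.28 for Dsg2 1439476_at, 0.19 for Dsg2 1426153_a_at and -0.06 for Dsg2 1449741_at. When 1 array was left out, values between the receptors ran from -0.11 to 0.15 for Pkp1, from -0.50 to 0.30 for Pkp2 1429183_at, from -0.16 to 0.06 for Pkp2 1460511_at, from -0.37 to 0.08 for Pkp3 1418831_at, from -0.07 to 0.19 for Pkp4 1452209_at and from -0.05 to 0.09 for Pkp4 1438677_at. They ran from -0.42 to 0.50 for Dsp 1435493_at, from -0.17 to 0.14 for Dsp 1435494_s_at, from -0.33 to 0.10 for Dsc2 1426911_at, from -0.01 to 0.20 for Dsg2 1425619_s_at, from -0.16 to 0.04 for Dsg2 1460380_at, from -0.22 to 0.20 for Dsg2 1439476_at, from -0.50 to 0.14 for Dsg2 1426153_a_at and from -0.18 to 0.21 for Dsg2 1449741_at. Against empty vector Pkp2 1420259_at with the full-length receptor was -0.01 after quantile normalization and ran from -0.18 to 0.14. Of the values of members other than Pkp2 against empty vector, 27 of 273 with the deleted receptor, on 10 of 17 probe sets, and 36 of 273 with the full-length receptor, on 12 of 17, had the opposite sign to the main value. The cause of these shifts was not tested. With 3 arrays a group, the SE of a member's difference, from 0.10 to 0.44, limits what can be seen.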
